A study of Mus musculus with 6 samples.

Results

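COPII is the protein coat that shapes the vesicles leaving the endoplasmic reticulum (ER) for the Golgi apparatus. Its 10 mouse genes examined here were Sar1a and Sar1b, Sec23a and Sec23b, Sec24a, Sec24b, Sec24c and Sec24d, Sec31a, and Sec13. They were picked by symbol as the coat's structural parts, 10 of 55414 gene identifiers in the count table, and each symbol matched 1 identifier. In the GRCm38 annotation they lie on chromosomes 2 (Sec23b), 3 (Sec24b and Sec24d), 5 (Sec31a), 6 (Sec13), 10 (Sar1a), 11 (Sar1b and Sec24a), 12 (Sec23a) and 14 (Sec24c). Coat assembly starts when a SAR1 GTPase is loaded with GTP at an ER exit site and inserts into the membrane. A SEC23 and a SEC24 protein then form the inner layer, in which SEC24 binds the cargo and SEC23 speeds GTP hydrolysis by SAR1, and SEC13 with SEC31 builds the outer cage. COPII vesicles travel forward, and the COPI coat, which holds the product of Copa, returns proteins from the Golgi to the ER. In secretory epithelia such as bile duct cells, every secreted and membrane protein that leaves the ER for the Golgi depends on this exchange.

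The cells were AY-mICC, a mouse line of intrahepatic cholangiocarcinoma, the cancer that arises from bile ducts inside the liver. RNA came from 3 samples with a knockdown of Copa, titled shCopa, and from 3 control samples, titled shCon, all of the same line and with no other allele or agent in the labels. The prefix is the usual one for a short hairpin RNA. No source used here gives the hairpins, the number of clones or whether the replicates were separate cultures, so a p-value measures only how these samples spread, and that spread may be technical. In bulk RNA, fewer cells with a transcript and less of it per cell cannot be told apart. Copa itself (ENSMUSG00000026553) stood at 186, 182 and 187 counts scaled to library size (CPM) in shCopa, against 420, 517 and 527 CPM in shCon, a fall to 37.9% of the control level (edgeR adjusted p = 0.000149).

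The libraries held 19634938 to 22824646 counts in shCopa and 22282624 to 24546204 counts in shCon. Of 9 biliary markers, 8 averaged at least 1 CPM, while Epcam lay below 1 CPM in every library. Krt19 stood at 522 to 556 CPM in shCopa and 534 to 622 CPM in shCon and did not pass the test, whereas Krt7 fell to 36.9% of control, Spp1 to 66.5%, Cdh1 to 73.4%, Krt18 to 73.7% and Krt8 to 79.3%. The biliary list summed to 8498 to 8976 CPM in shCopa and 11387 to 14464 CPM in shCon, and 5 hepatocyte markers to 30.5 to 32.5 CPM in shCopa and 10.8 to 15.0 CPM in shCon. Summed markers of leukocytes lay at 9.21 to 9.71 CPM in shCopa and 1.27 to 1.81 CPM in shCon, those of fibroblasts at 168 to 182 CPM in shCopa and 184 to 223 CPM in shCon, and those of endothelium at 1.51 to 3.34 CPM in shCopa and 0.0411 to 0.172 CPM in shCon. Most of the fibroblast sum was Dcn (164 to 178 CPM in shCopa, 180 to 220 CPM in shCon). Dcn and Col1a1 did not pass the test, and Pdgfrb fell to 31.6% of control. Col1a1 stood higher in shCopa, at 1.59 to 3.14 CPM, than in shCon, at 0.945 to 1.55 CPM. So did Col1a2 (0.133 to 0.389 CPM in shCopa, 0 to 0.0429 CPM in shCon). Pdgfra also did (0.177 to 0.455 CPM in shCopa, 0.0429 to 0.123 CPM in shCon). Col1a2 and Pdgfra had too few counts to be tested. Most of the endothelium sum in shCopa was Kdr, at 1.15 to 2.63 CPM in shCopa and 0.0411 to 0.139 CPM in shCon (edgeR adjusted p = 0.000965). Of the leukocyte list, Lyz2 averaged at least 1 CPM over the 6 libraries, the pan-leukocyte gene Ptprc stood at 0.930 to 1.26 CPM in shCopa and 0 to 0.0429 CPM in shCon (edgeR adjusted p = 0.000641), and Cd3e and Adgre1 were at or near 0 in every library. The part of these marker differences in the results was not tested. The library shCon 1 stood apart from shCon 2 and shCon 3, so calls on COPII members that it decides are given with and without it.

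All 10 COPII genes were well covered, with 566 to 5955 counts in a library, and all 10 passed the filter on low counts. With all 6 libraries, Sec24d rose 1.87-fold, and the other 9 did not pass edgeR's test, with log2 fold changes between -0.05 and 0.36. So 1 of 10 members was called, while 36.5% of all 14807 tested genes were called in either direction, 18.2% higher and 18.4% lower. The median log2 fold change of the members was 0.09, beside -0.01 over all tested genes. The CPM values of the groups did not overlap for 3 members (Sec24d, Sec23b and Sec31a), against 54.0% of all tested genes. Here and below a gene is said to rise or fall only where edgeR's quasi-likelihood test, with Benjamini-Hochberg adjustment over all tested genes, gave an adjusted p under 0.05.

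**Figure D1:**
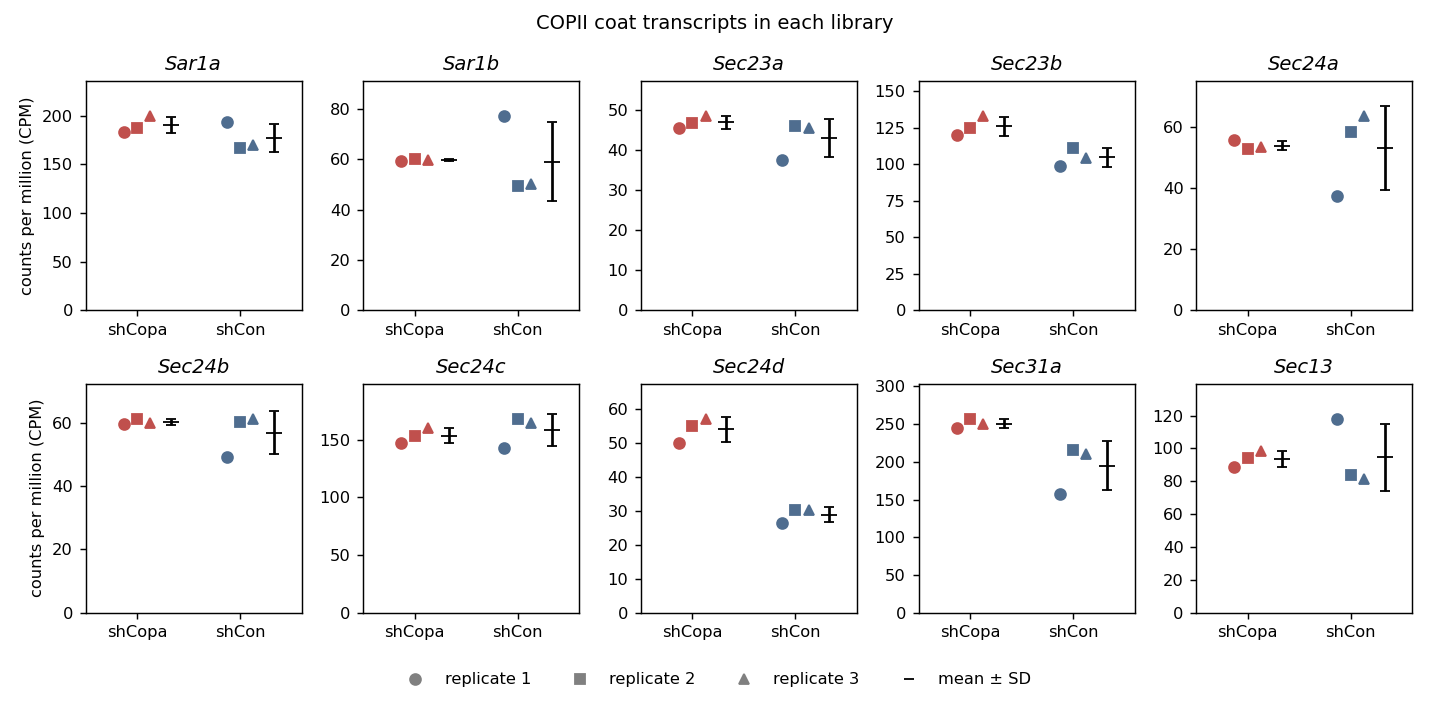
Counts scaled to library size (CPM; vertical axes, from 0) of the 10 COPII coat genes in each library; symbols mark the replicate, and the bar beside them the mean with the SD over 3 libraries. Sec24d lies between 49.9 and 57.1 CPM in shCopa and between 26.3 and 30.2 CPM in shCon, and shCon 1 lies apart from shCon 2 and 3 for Sar1b, Sec24a, Sec31a and Sec13.

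SAR1 starts the assembly, and its genes showed no change in either direction that passed the test. Sar1a (ENSMUSG00000020088) stood at 184, 188 and 200 CPM in shCopa and at 194, 167 and 170 CPM in shCon. The groups overlapped because of shCon 1, and the log2 fold change was 0.10 with a 95% interval of -0.12 to 0.33 (edgeR adjusted p = 0.427). Sar1b (ENSMUSG00000020386), whose human counterpart is known for the export of chylomicrons from gut cells, stood at 59.4, 60.1 and 59.6 CPM in shCopa and at 77.2, 49.5 and 50.3 CPM in shCon. The shCopa libraries lay inside the range of shCon, above shCon 2 and 3 and below shCon 1. Its log2 fold change was 0.02 (interval -0.39 to 0.43, edgeR adjusted p = 0.948).

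SEC23 forms the inner coat with SEC24 and is the GTPase-activating protein of SAR1. Sec23a (ENSMUSG00000020986), which in mouse cartilage is known as a target of the transcription factor CREB3L2, stood at 45.3, 46.7 and 48.4 CPM in shCopa and at 37.4, 45.9 and 45.3 CPM in shCon. The ranges overlapped, and the log2 fold change was 0.13 (interval -0.12 to 0.37, edgeR adjusted p = 0.391). Sec23b (ENSMUSG00000027429), whose human counterpart is mutated in a congenital dyserythropoietic anaemia, stood at 120, 125 and 133 CPM in shCopa and at 98.6, 111 and 104 CPM in shCon. All 3 shCopa libraries lay above all 3 shCon libraries, yet the difference of 0.27 (SE 0.09, interval 0.05 to 0.48) missed the threshold at edgeR adjusted p = 0.0540. DESeq2, which called 40.8% of the same genes (20.2% higher, 20.6% lower), called it at adjusted p = 0.0218.

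SEC24 proteins carry the binding sites for sorting signals of cargo, and 4 genes encode them. Sec24d (ENSMUSG00000039234), whose human counterpart is mutated in a brittle bone disorder with retained procollagen, stood at 49.9, 54.9 and 57.1 CPM in shCopa and at 26.3, 30.2 and 30.1 CPM in shCon. The lowest shCopa library was well above the highest shCon library, and this gap was wider than the range within either group. The coefficient of variation was 6.82% in shCopa, the highest of all members there, and 7.77% in shCon. The means were 54.0 ± 3.68 CPM in shCopa and 28.9 ± 2.24 CPM in shCon (SD, n = 3 each). The log2 fold change was 0.90 ± 0.10 (SE), which is 1.87-fold with a 95% interval of 1.58 to 2.21 (edgeR adjusted p = 0.000624). Of all tested genes, 10.0% had a higher log2 fold change. With any 1 library left out it stayed between 0.83 and 0.96 and was called each time.

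The promoter windows of Sec24d, of its closest relative Sec24c and of Sec23a are shown because members of the CREB3 family and XBP1, factors that act on ER export genes, bind DNA words built on ACGTG. The windows run from 250 bases before to 50 bases after the RefSeq start, in the mouse build GRCm38.p6, read along the gene's strand. They lie at chr3:123267246-123267545 on the plus strand for Sec24d, chr14:20674071-20674370 on the plus strand for Sec24c and chr12:59011968-59012267 on the minus strand for Sec23a. Capitals mark matches on either strand to ACGTG, to the longer TGACGTGG that contains it, and to CCAAT.
Sec24d: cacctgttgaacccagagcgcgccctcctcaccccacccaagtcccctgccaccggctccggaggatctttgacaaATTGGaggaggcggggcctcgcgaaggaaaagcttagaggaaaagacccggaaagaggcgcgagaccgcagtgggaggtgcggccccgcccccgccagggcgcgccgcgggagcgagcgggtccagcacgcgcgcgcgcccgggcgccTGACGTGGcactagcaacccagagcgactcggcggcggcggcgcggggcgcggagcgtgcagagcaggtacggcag
Sec24c: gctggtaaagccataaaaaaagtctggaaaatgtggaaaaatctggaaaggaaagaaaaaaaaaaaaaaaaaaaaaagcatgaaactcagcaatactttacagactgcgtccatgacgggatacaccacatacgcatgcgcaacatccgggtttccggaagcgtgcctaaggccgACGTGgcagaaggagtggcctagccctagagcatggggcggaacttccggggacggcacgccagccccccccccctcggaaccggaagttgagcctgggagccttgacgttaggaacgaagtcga
Sec23a: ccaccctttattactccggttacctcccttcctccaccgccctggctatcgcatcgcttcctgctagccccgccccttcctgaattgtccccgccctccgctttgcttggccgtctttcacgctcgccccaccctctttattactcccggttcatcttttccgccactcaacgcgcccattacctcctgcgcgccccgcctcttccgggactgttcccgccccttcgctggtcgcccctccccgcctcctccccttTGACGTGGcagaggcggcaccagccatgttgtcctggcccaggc

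In the first RefSeq window of each gene, read on both strands, TGACGTGG was found in 2 of the 10 members, Sec24d and Sec23a, beside 0.68% of 32851 windows of all genes. In Sec24d it began 26 bases before the start, and in Sec23a it began past the start. Sec24d rose and Sec23a did not pass the test. Over all tested genes with this word in a window, 22 of 110 were called higher and 20 lower, beside 18.7% called higher and 19.3% called lower of 10683 tested genes with any window. The shorter ACGTG was found in 8 of 10 members, in all but Sar1b and Sec23b, beside 19.6% of all windows and 23.6% of windows with at least 50% GC. Counted by gene, 3069 of 10683 tested genes with any window held ACGTG in a window, and 110 held TGACGTGG. ACGTG contains the letters CG, which occurred 13 to 39 times in the members' first windows, beside a median of 7 over all windows. Whether the members hold these words more often than like genes was not tested. No member held the ER stress response element (ERSE), its relative ERSE-II, the amino acid response element or the cAMP response element TGACGTCA on either strand. ERSE was found in 0.12% of all windows, ERSE-II in 0.04%, the amino acid response element in 0.17% and TGACGTCA in 1.79%. CCAAT was found in 3 members (Sar1b, Sec23b and Sec24d), beside 37.4% of all windows. A match is a run of letters and not a bound site.

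The closest relative of Sec24d is Sec24c (ENSMUSG00000039367), with 64.8% identical bases over the aligned coding sequence. Sec24c stood at 147, 153 and 160 CPM in shCopa and at 143, 168 and 164 CPM in shCon. The groups overlapped, and the log2 fold change was -0.05 (interval -0.27 to 0.18, edgeR adjusted p = 0.726). Sec24a (ENSMUSG00000036391) stood at 55.7, 52.7 and 53.6 CPM in shCopa and at 37.4, 58.5 and 63.7 CPM in shCon. The shCopa libraries lay between shCon 1 and the other control libraries, with a log2 fold change of 0.02 (interval -0.42 to 0.46, edgeR adjusted p = 0.942). Sec24b (ENSMUSG00000001052), known in mouse embryos for sorting the polarity protein VANGL2, stood at 59.5, 61.2 and 59.9 CPM in shCopa and at 49.1, 60.2 and 61.3 CPM in shCon. Its groups overlapped as well (log2 fold change 0.08, interval -0.17 to 0.33, edgeR adjusted p = 0.585).

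The outer cage is built from SEC31, a long rod-like protein, and SEC13, a small beta-propeller protein that also serves in the nuclear pore. Sec31a (ENSMUSG00000035325) stood at 245, 257 and 250 CPM in shCopa and at 158, 216 and 211 CPM in shCon. All shCopa libraries lay above all shCon libraries, but shCon 1 lay far below its own group. The log2 fold change was 0.36 (SE 0.13, interval 0.06 to 0.67, edgeR adjusted p = 0.0657); DESeq2 gave adjusted p = 0.0362. Sec13 (ENSMUSG00000030298) stood at 88.6, 94.5 and 98.4 CPM in shCopa and at 118, 83.9 and 81.6 CPM in shCon. Here shCon 1 was the highest library, the groups overlapped, and the log2 fold change was -0.01 (interval -0.37 to 0.35, edgeR adjusted p = 0.961).

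The deviation of shCon 1 ran with transcript length, also within the coat genes. The spread over replicates of the 10 members, as the coefficient of variation of CPM, had a median of 3.78% in shCopa and 11.4% in shCon, and of 1.53% between shCon 2 and shCon 3 alone. The short transcripts of Sar1b and Sec13, with 1201 and 1353 bases, were higher in shCon 1 than in the mean of shCon 2 and 3, by 0.63 and 0.51 on the log2 scale. The longest, Sec24a with 6581 bases, was lower there, with a log2 ratio of -0.71, and Sec31a with 4228 bases had a ratio of -0.44. Over all tested genes with a known length, the median of this ratio was 0.43 in the shortest of 4 length classes of about equal size and -0.40 in the longest. Sec24d, with 3903 bases, had a ratio of -0.20.

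**Figure D2:**
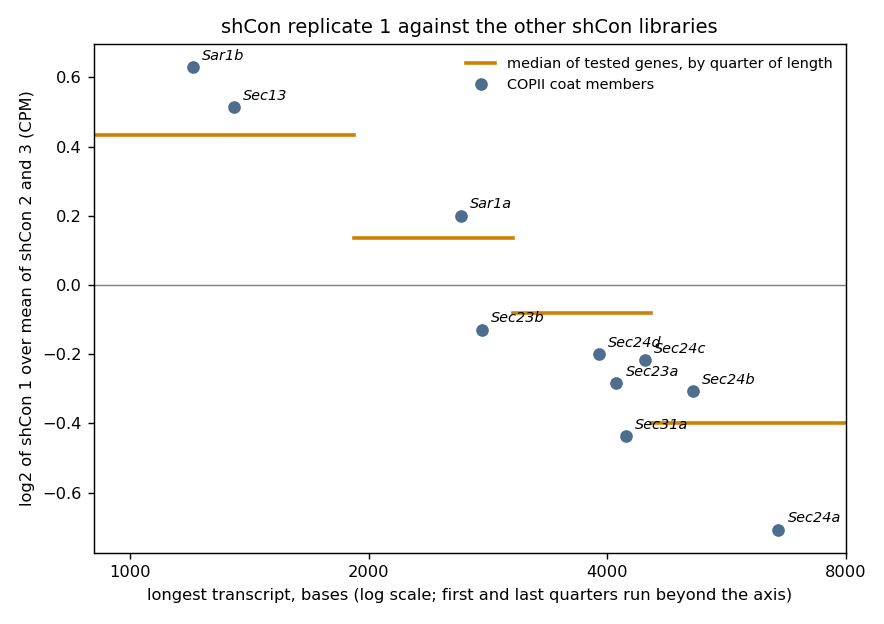
Log2 ratio of CPM in shCon 1 over the mean of shCon 2 and 3 (vertical axis) against the length of the longest transcript in bases (horizontal axis, log scale); points are COPII coat genes and bars the median of all tested genes in each of 4 length classes. Sar1b and Sec13 sit highest, at 0.63 and 0.51, and Sec24a sits lowest, at -0.71.

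Without shCon 1, 6 members rose and 1 fell, beside 28.3% of 15273 tested genes called higher and 27.0% called lower, 55.3% in all. Those that rose were Sec24d (log2 fold change 0.83, adjusted p = 3.78e-08), Sar1b (0.26, adjusted p = 0.00242), Sec31a (0.23, adjusted p = 0.00156), Sec23b (0.22, adjusted p = 0.00513), Sec13 (0.18, adjusted p = 0.0219) and Sar1a (0.17, adjusted p = 0.0164), all by edgeR. Sec24a fell (-0.18, edgeR adjusted p = 0.0273). Apart from Sec24d, each of these changes was smaller than 0.3 on the log2 scale. With offsets for transcript length and GC content fitted in each library, an alternative added after the data were seen, Sec24d (0.91), Sec31a (0.42) and Sec23b (0.21) rose and no member fell, while 26.0% of all tested genes were called higher and 23.7% lower (49.7% in all).

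**Figure D3:**
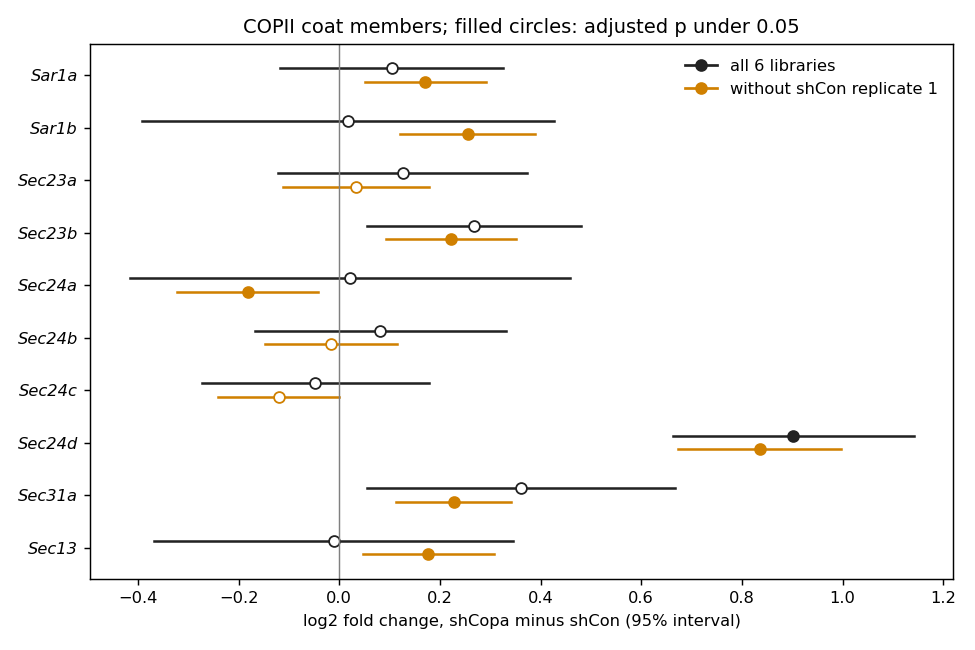
Log2 fold change of shCopa minus shCon (horizontal axis) with its 95% interval for each COPII coat gene, with all 6 libraries (black) and without shCon 1 (orange); filled circles passed an adjusted p of 0.05. Sec24d is at 0.90 and 0.83 in these fits, and no other member lies beyond 0.36.

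Levels of different genes can be compared only per length, here as CPM per kilobase of the longest transcript. In shCopa the highest were Sar1a (72.8 ± 3.18) and Sec13 (69.3 ± 3.64), with Sar1a above Sec13 in each of the 3 libraries. Then came Sec31a (59.3 ± 1.47), Sar1b (49.7 ± 0.290), Sec23b (45.4 ± 2.38) and Sec24c (34.4 ± 1.45). A low group followed, of Sec24d (13.8 ± 0.944), Sec24b (11.7 ± 0.168), Sec23a (11.4 ± 0.379) and Sec24a (8.21 ± 0.231), all with SD and n = 3 each. This order is tied to the longest transcript and moves with the length chosen. The coding part is 597 of 2613 bases in Sar1a and 969 of 1353 bases in Sec13. In shCon, Sec24d had the lowest mean at 7.40 ± 0.575, with Sec24a at 8.09 ± 2.11. Sec24d was below Sec24a in shCon 2 and 3 and above it in shCon 1. The neighbours Sec24b and Sec23a lay close together. Within libraries, Sec24b was the higher in shCon 1, 2 and 3 and in shCopa 1 and 2, and the lower in shCopa 3. Per length, Sec23b exceeded Sec23a and Sec24c exceeded each other SEC24 gene in all 6 libraries. Summed per length, the SEC24 genes gave 68.1 ± 2.26 CPM per kilobase in shCopa and 62.1 ± 6.96 in shCon, with overlapping groups (exact permutation test, two-sided, p = 0.30).

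The make-up of the SEC24 family differed between the groups, in counts per kilobase. Sec24d took 19.5%, 20.6% and 20.8% of the family in shCopa and 12.5%, 11.7% and 11.7% in shCon. Sec24c took 50.1%, 50.2% and 51.0% in shCopa and 59.3%, 57.1% and 55.6% in shCon. Every shCopa library held a larger share of Sec24d and a smaller one of Sec24c than every shCon library. These are not separate differences, since the shares of a family add up to a fixed total and a larger share of Sec24d lowers the rest. The CPM of Sec24c itself overlapped between the groups (log2 fold change -0.05, edgeR adjusted p = 0.726). Sec24b lay at 16.6% to 17.6% in shCopa and 17.7% to 18.1% in shCon, with the nearest libraries less than 1 point apart, and Sec24a at 11.6% to 12.9% in shCopa and 10.5% to 14.6% in shCon. The shares, and the order of Sec24a, Sec24b and Sec24d, move with the length chosen for each gene: over all exons joined, Sec24d took 17.8% in shCopa and 10.4% in shCon on average, and over the coding length 18.0% in shCopa and 10.5% in shCon. In shCopa, Sec24b (20.9%) then exceeded Sec24d over all exons joined, and Sec24a (17.1%) exceeded Sec24b (16.6%) over the coding length.

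**Figure D4:**
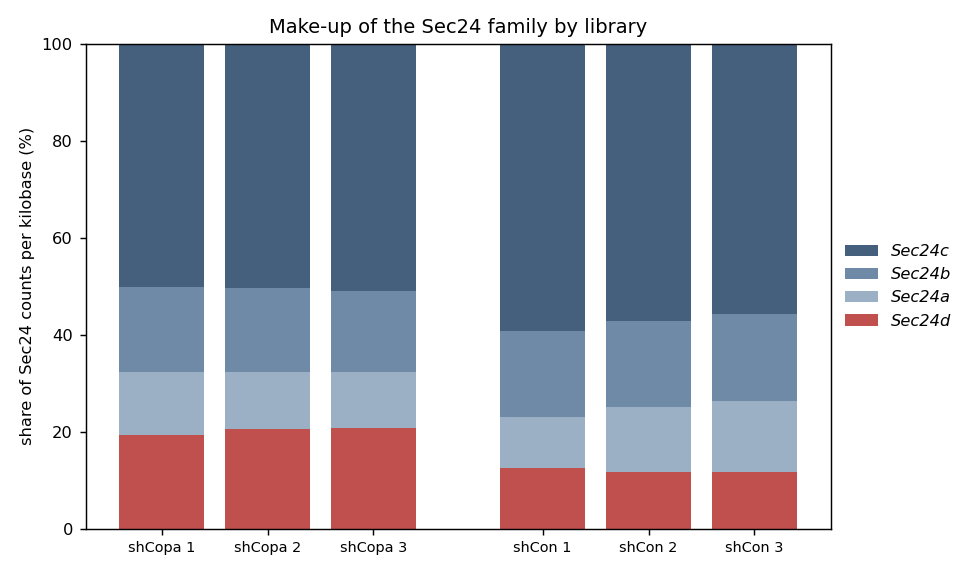
Share of each SEC24 gene in the summed counts per kilobase of the family (vertical axis, percent) in each library. The Sec24d part spans 19.5% to 20.8% in the shCopa libraries and 11.7% to 12.5% in the shCon libraries.

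Ratios of paralogs within a library do not depend on how the libraries were scaled. Sec24d over Sec24c had log2 ratios of counts of -1.56, -1.48 and -1.48 in shCopa and -2.44, -2.48 and -2.45 in shCon, a difference of 0.95. That is far beyond the spread, with an SD of 0.04 in shCopa and 0.02 in shCon, and it was 0.95 without shCon 1 too. Over the sum of the other SEC24 genes, the ratio of Sec24d was higher by 0.90 in shCopa. In both cases the groups did not overlap, and the exact permutation test (two-sided) gave p = 0.10, the smallest that 3 against 3 libraries allow, or p = 0.20 adjusted over the 6 ratios computed.

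Sec23a over Sec23b had log2 ratios of -1.41, -1.42 and -1.46 in shCopa and -1.40, -1.28 and -1.20 in shCon. The shCopa libraries lay below all shCon libraries, by only 0.01 in the case of shCon 1, and the mean difference was -0.14 (exact permutation p = 0.10, adjusted p = 0.20). The other ratios overlapped between the groups: Sec24a over Sec24b differed by -0.03 (exact permutation p = 0.90), Sar1a over Sar1b by 0.06 (exact permutation p = 1.0) and Sec31a over Sec13 by 0.37 (exact permutation p = 0.30). For Sec31a over Sec13, shCon 1 had a ratio of 0.42 beside 1.37 in each of shCon 2 and 3, and without shCon 1 the difference was 0.05.

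Reads of these paralogs can be told apart over most of their length. The longest run of identical bases between coding sequences of a family was 20, for Sar1a with Sar1b (78.6% identical bases) and for Sec23a with Sec23b (75.5%), and Sec24a with Sec24b shared at most 17 (66.5%). Against all other genes of the GENCODE M21 annotation, a stretch of 75 bases or more was shared only by Sec24a, with Gm43684 (96 bases, 0 to 5 counts in shCopa libraries and 3 to 7 in shCon libraries) and with the interferon-induced gene Xaf1 (78 bases, 1724 to 1796 counts in shCopa libraries and 418 to 434 in shCon libraries). Antisense genes overlap exons of Sec24c (6230400D17Rik, 41 to 51 counts in shCopa libraries and 42 to 49 in shCon libraries) and Sec23a (Gm17529, 0 to 4 counts in shCopa libraries and 1 to 2 in shCon libraries), and no source used here gives the strand setting of the counting.

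Around the coat, 11 genes of ER exit sites and COPII regulation were followed, and 3 of them rose, none fell and 8 did not pass (median log2 fold change 0.08, and 0.15 without shCon 1), beside 18.2% of all tested genes called higher and 18.4% called lower. Sec31b, the paralog of Sec31a, was counted in this list and not among the 10 coat genes. It rose 2.18-fold from a low level, with 4.21, 2.94 and 3.03 CPM in shCopa and 1.35, 1.37 and 1.93 CPM in shCon (edgeR adjusted p = 0.0116, lost without shCopa 1). Sec16b, a scaffold of exit sites, rose 2.72-fold, at 1.26 ± 0.439 CPM in shCopa and 0.461 ± 0.116 CPM in shCon (SD, n = 3 each; edgeR adjusted p = 0.0233, lost without shCopa 1, shCopa 2 or shCon 2). Sec23ip, which binds SEC23, rose 1.30-fold (edgeR adjusted p = 0.0167, lost without any 1 shCopa library). The major scaffold Sec16a had a log2 fold change of 0.08 (interval of the fold, 0.774 to 1.45) and Preb, the exchange factor that loads SAR1 with GTP, one of 0.08 (fold 0.900 to 1.23), and Mia2, which helps to load large cargo, one of 0.33 (edgeR adjusted p = 0.0682). None of these last 3 passed, although without shCon 1 Preb (0.15) and Mia2 (0.22) did, and Sec16a then had -0.13 and did not pass.

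Of 13 cargo receptors and export adaptors, 3 rose, 4 fell and 6 did not pass, beside the same 18.2% and 18.4% of all tested genes called higher and lower. Their median was -0.06, and 0.028 without shCon 1. Scap, which escorts the sterol-sensing factor SREBP out of the ER in COPII vesicles, fell to 37.5% of control, at 31.2 ± 1.53 CPM in shCopa and 83.1 ± 4.99 CPM in shCon (SD, n = 3 each; edgeR adjusted p = 8.05e-05). Lman2, a lectin of the early secretory pathway, fell to 57.9% of control (edgeR adjusted p = 0.000476) and Lman2l to 72.8% (edgeR adjusted p = 0.00659). Surf4, a receptor for soluble cargo, rose 1.45-fold, at 372 ± 14.2 CPM in shCopa and 257 ± 26.2 CPM in shCon (SD, n = 3 each; edgeR adjusted p = 0.00578). These 4 calls held with any 1 library left out. The remaining calls, named after their values were seen, were Ergic1 (1.24-fold) and Ergic2 (1.25-fold), which rose but were called in only 1 of 6 fits with 1 library left out (that without shCon 1), and Cnih4 (68.1% of control), whose call was lost without any 1 shCopa library.

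Of 15 genes for tethering and fusion of the vesicles, 1 rose, 2 fell and 12 did not pass, beside 36.5% of all tested genes called in either direction. Their median was 0.01, against 0.14 without shCon 1 and -0.061 without shCon 3. The SNARE gene Sec22b rose 1.61-fold, at 62.3 ± 4.69 CPM in shCopa and 38.8 ± 2.40 CPM in shCon (SD, n = 3 each; edgeR adjusted p = 0.00168), also with any 1 library left out. Rab1b, a GTPase that directs ER-to-Golgi traffic, fell to 68.5% of control (edgeR adjusted p = 0.0249) and the SNARE gene Ykt6 to 77.6% (edgeR adjusted p = 0.0494). Both calls were lost without any 1 shCopa library, that of Ykt6 also without shCon 2. The tether gene Uso1 had a log2 fold change of 0.23 (edgeR adjusted p = 0.129), and was called without shCon 1 at 0.14 (edgeR adjusted p = 0.0456).

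Of 7 transcription factors known to act on COPII or other ER genes, 6 were tested, and 1 rose, none fell and 5 did not pass (median 0.01, and -0.062 without shCon 3), beside 18.2% of all tested genes called higher and 18.4% called lower. Creb3l1, a relative of Creb3l2 tied to collagen export, rose 1.47-fold, with 6.73, 7.22 and 8.55 CPM in shCopa and 5.30, 4.98 and 5.05 CPM in shCon (edgeR adjusted p = 0.0247). Its call was lost without shCopa 2, shCopa 3, shCon 2 or shCon 3. Creb3l2 had a log2 fold change of -0.15 (edgeR adjusted p = 0.414) and Xbp1 one of -0.32 (edgeR adjusted p = 0.152), with Xbp1 at 129 CPM in shCon 1 beside 85.7 and 92.5 CPM in shCon 2 and 3. Atf4 had one of 0.05 (edgeR adjusted p = 0.773), and Creb3l3 was below the filter on low counts. Without shCon 1, 3 of these factors rose and 2 fell, Atf4 (0.18, edgeR adjusted p = 0.0103) and Creb3l2 (-0.29, edgeR adjusted p = 0.000417) among them, and of the exit-site genes 6 rose and 1 fell. Of all tested genes, 28.3% were then called higher and 27.0% lower.

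**Figure D5:**
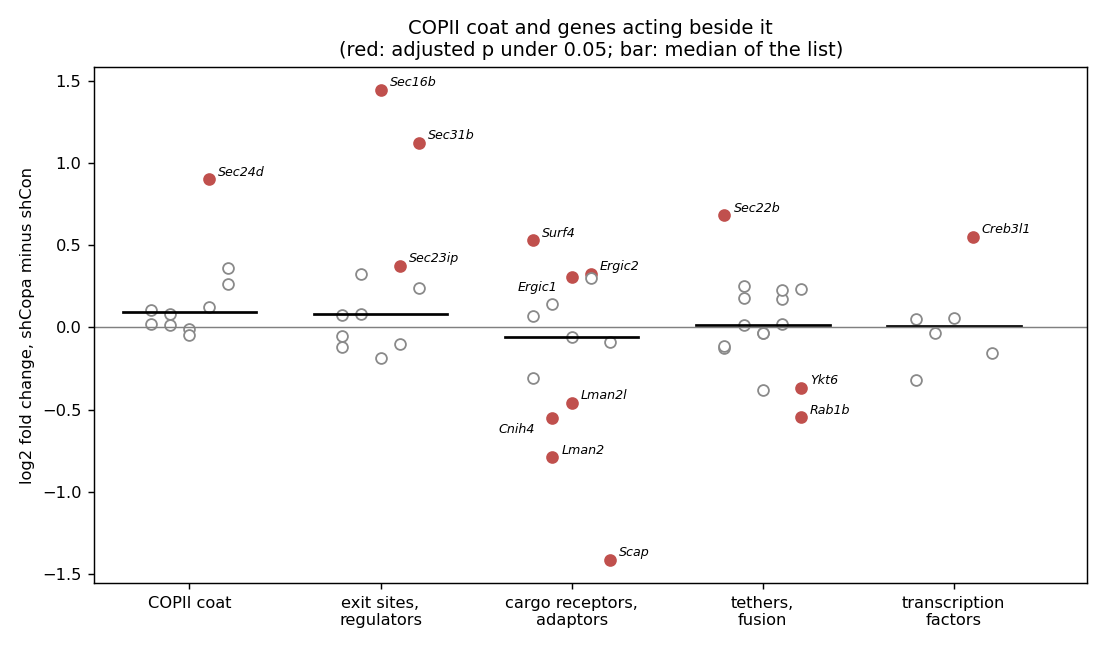
Log2 fold change of shCopa minus shCon (vertical axis) for each tested gene of the COPII coat and of 4 lists of genes that act beside it; red points passed an adjusted p of 0.05 and are named, and bars mark list medians, between -0.06 and 0.09. Sec24d, at 0.90, is the only red point among the 10 coat genes.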

How the data were processed

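RNA of the 6 samples was sequenced from mRNA libraries in paired-end mode, per the labels' protocols. The authors deposited estimated counts for each Ensembl gene, of which 10.6% to 11.9% per library were not whole numbers. The submitters' processing notes name Trimmomatic, HISAT2 (2.0.5), HTSeq, featureCounts and DESeq2, and build GRCm39. No source used here says which of them made the counts, or gives the annotation and strand setting.

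Symbols (for 52081 identifiers), transcript lengths and coding sequences came from GENCODE M21, and promoter windows from RefSeq (GRCm38.p6). They were joined to the counts by identifier or symbol, never by coordinate. Rounded counts went into edgeR 4.0.16 (R 4.3.3) with TMM scaling, filterByExpr and robust quasi-likelihood fits, and p-values were adjusted by Benjamini-Hochberg over 14807 genes, with a threshold of 0.05. Fold changes are shCopa over shCon. The SE is the fitted change divided by the root of its F statistic. A floor of 3 counts was 0.131 to 0.153 CPM in shCopa and 0.122 to 0.135 CPM in shCon, for counting error only. It was taken on the library totals before TMM scaling, so it differs slightly from the scale of the CPM values given. Paralog ratios used counts plus 0.5 and an exact permutation test over libraries (scipy 1.17.1). Coding sequences were aligned with Biopython 1.88. The edgeR code was checked on simulated counts. The alternatives were other scaling and filters, DESeq2 1.42.0, limma-voom (limma 3.58.1), the replicate number as a block, each library left out and, added after the data were seen, length and GC offsets.

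The members, the gene lists and the tests were chosen with earlier results of these data known. Genes named were all members and Copa; of each list, the 4 with the smallest adjusted p and every one that passed if 5 or fewer did; and Preb, Sec16a, Creb3l2 and Xbp1. Outside this rule, Ergic1, Ergic2, Cnih4, Creb3l3, the genes that share sequence or overlap with members and the cell type markers were named after their values were seen.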

Additional observations from a re-analysis of the deposited data

How the results depend on the processing

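Sec24d rose under all 15 alternatives run, with adjusted p of 0.00658 or less. The remaining members depended on the setting where their change was small. Sec23b was also called with upper-quartile scaling (0.30), with library totals only (0.32), with a filter of 1 CPM in 3 libraries (0.28), by DESeq2 (0.27) and with length and GC offsets (0.21), and Sec31a by DESeq2 (0.36) and with the offsets (0.42). So the number of COPII members that rose was 2 of 10 with upper-quartile scaling, with library totals and with the 1 CPM filter, where 19.5%, 20.3% and 18.8% of all tested genes were called higher, and 3 by DESeq2 (20.2%) and with the offsets (26.0%). Uncalled members changed sign: Sar1b (-0.014) and Sec24a (-0.0086) with no filter, Sec24a (-0.060) with the offsets, Sec24c (0.0016) with library totals, and Sec13 with upper-quartile scaling (0.018), library totals (0.042), the 1 CPM filter (0.00055), limma-voom (0.0087), the replicate block (0.0085) and the offsets (0.10).

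Among the lists, offsets gave 5 exit-site genes and 5 tether genes that rose, and 2 factors that rose with 1 that fell. Of all tested genes, 26.0% were then called higher and 23.7% lower. With no filter 1 cargo receptor and 0 factors rose, beside 9.53% of 27462 tested genes called higher. Of the tether genes 1 fell, in place of 2, under RLE, upper-quartile and library-total scaling, the 1 CPM filter and limma-voom. In these settings 16.4% to 19.5% of all tested genes were called lower, beside 18.4% in the fit used above.

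With 1 library left out, log2 fold changes ranged over 0.059 to 0.17 for Sar1a, -0.10 to 0.26 for Sar1b, 0.03 to 0.17 for Sec23a, 0.22 to 0.31 for Sec23b, -0.18 to 0.16 for Sec24a, -0.016 to 0.13 for Sec24b, -0.12 to -0.01 for Sec24c, 0.23 to 0.44 for Sec31a and -0.12 to 0.18 for Sec13. The number of members that rose ranged from 1 to 6 and that fell from 0 to 1, and their median from 0.078 to 0.17. Of the exit-site genes 0 to 6 rose and 0 to 1 fell, of the cargo receptors 1 to 5 rose and 3 to 5 fell, of the tether genes 1 to 5 rose and 0 to 2 fell, and of the factors 0 to 3 rose and 0 to 2 fell. The highest of each was reached without shCon 1. The number of all genes called was 8439 there, 3565 without shCopa 2 and 3533 without shCopa 3, against 5411. Over these fits, 11.7% (without shCopa 3) to 28.3% (without shCon 1) of all tested genes were called higher. The share called lower ran from 11.6% (without shCopa 2 or 3) to 27.0% (without shCon 1). Differences in paralog ratios ranged over -0.19 to -0.09 for Sec23a over Sec23b, -0.16 to 0.060 for Sec24a over Sec24b, 0.93 to 0.97 for Sec24d over Sec24c, 0.87 to 0.94 for Sec24d over the other SEC24 genes, -0.085 to 0.13 for Sar1a over Sar1b and 0.05 to 0.53 for Sec31a over Sec13. Apart from the low-count filter and the libraries left out, whose construction changes the genes or samples tested, the cause was not tested.

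The values showed no pairing of the libraries by replicate number, but with 3 libraries a group this check cannot settle whether they were paired. Deviations from the group means correlated at -0.162, -0.058 and -0.114 between libraries of the same number, and shCopa 1 correlated best with shCon 3 (0.225). With the replicate number as a block, Sec24d had a log2 fold change of 0.90 (edgeR adjusted p = 0.00528), and 3903 genes were called in place of 5411. That was 13.3% of all tested genes called higher and 13.1% lower. In the same fit 1 cargo receptor and 0 factors rose, and 0 tether genes fell.

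Each member had 566 counts or more in every library, and the 95% intervals of the 9 uncalled members lay between -0.42 and 0.67 on the log2 scale.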
